A study of Mus musculus with 3 samples.

Results

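Accessible chromatin around Kit, Flt3, Cd34 and Ly6a, 4 surface genes of blood progenitors, was described in the mouse ECOMG myeloid progenitor line from ATAC-seq, an assay that maps the DNA a transposase can reach. The 4 genes were chosen by name with earlier results of these data in view, out of 21883 protein-coding genes. For each gene, every listed region from 100 kb below its span to 100 kb above it was taken. This window gave 141, 139 and 114 regions for the 4 genes at 0, 6 and 72 h, out of 182233, 178055 and 145044 in the whole lists. All cells carried the genotype FKBP12F36V_NIPBL, a degron tag on NIPBL, the loader of cohesin, and all grew with GM-CSF and estradiol. Of the 3 libraries, each from 50000 cells, 1 came from cells without dTAG (0 h) and the others from cells given dTAG for 6 h or 72 h. dTAG is the small molecule that leads the cell to break down a protein with this tag. With 1 library per time no difference has a replicate check, and dTAG, time in culture and library cannot be told apart. Whether the cells are 1 clone is not given in the sources used here.

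Kit and Flt3 are receptor tyrosine kinases of the same class. Kit binds stem cell factor, the product of Kitl, and Flt3 binds the product of Flt3l, and both pass signals for survival and growth to stem cells and early progenitors. Cd34 is a sialomucin of progenitors and of endothelium, and Ly6a encodes Sca-1, a small protein held on the membrane by a lipid anchor. In the blood system Kit is turned down as myeloid cells mature but is kept by mast cells, Flt3 is kept by dendritic cells, and Ly6a lies among related Ly6 genes. Kit is known for enhancers that lie far upstream of the gene.

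The 250 bases before the start site of Kit, Flt3 and Cd34 are shown because the region at the Kit start was listed at 0 h and 6 h and not at 72 h, while those at the starts of Flt3 and Cd34 were listed at all times. They are from RefSeq, build GRCm38.p6, the assembly of mm10, and run 5′ to 3′ on the strand of the gene. Capitals mark matches to the motifs named below; Ly6a had no entry.
Kit, plus strand, chr5:75574737-75574986: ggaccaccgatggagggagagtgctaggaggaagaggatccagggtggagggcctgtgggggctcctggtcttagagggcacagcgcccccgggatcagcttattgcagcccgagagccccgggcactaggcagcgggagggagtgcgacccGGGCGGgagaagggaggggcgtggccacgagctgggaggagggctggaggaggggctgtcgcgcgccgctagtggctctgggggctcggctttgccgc
Flt3, minus strand, chr5:147400490-147400739: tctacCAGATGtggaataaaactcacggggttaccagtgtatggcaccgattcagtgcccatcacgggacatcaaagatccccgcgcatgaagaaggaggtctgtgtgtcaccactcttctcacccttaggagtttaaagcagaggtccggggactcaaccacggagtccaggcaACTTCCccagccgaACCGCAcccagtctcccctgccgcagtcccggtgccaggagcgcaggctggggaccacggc
Cd34, plus strand, chr1:194938571-194938820: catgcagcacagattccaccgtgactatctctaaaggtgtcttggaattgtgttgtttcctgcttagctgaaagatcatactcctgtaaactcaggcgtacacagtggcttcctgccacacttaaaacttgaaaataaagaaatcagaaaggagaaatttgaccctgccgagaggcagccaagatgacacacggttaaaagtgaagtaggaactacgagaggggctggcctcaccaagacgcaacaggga
The Kit stretch is the richest in G and C of the 3, at 70.8% with 17 CpG dinucleotides. The Flt3 stretch has 59.2% and 13, and the Cd34 stretch 46.4% and 6. Over 21262 such stretches of 17491 coding genes the medians are 55.6% and 10. Of the Kit bases, 142, 244 and 0 lay inside a listed region at 0, 6 and 72 h. The corresponding numbers were 205, 185 and 204 for Flt3 and 84, 74 and 84 for Cd34.

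Each stretch was searched on both strands for 9 short motifs of blood-cell and general factors. The Kit stretch held 1 GC box (GGGCGG), which 42.6% of all stretches hold. The Flt3 stretch held 1 match each to an E-box (CANCTG, in 42.0% of stretches), an ETS motif (GGAAGT, in 20.4%) and a RUNX motif (TGNGGT, in 38.5%). None of the 3 held GATAA of the GATA factors (20.5% of stretches), TGANTCA of AP-1 (6.13%), AACNGTC of MYB (6.07%), TTGCNNAA of the C/EBP factors (9.09%) or TGATTNAT of HOX with MEIS (2.52%). The Cd34 stretch held no match to any of the 9. A match is only a run of letters, and its absence says nothing of the factor. None of the motifs overlapped another in these stretches.

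Regions were read from the authors' 3 peak lists, 1 per library. Each has a fold, the height of its summit over the background of the peak caller, which is the authors' value and ranks regions within 1 list only. The folds lie on an even grid, from which the number of fragments at a summit can be read if the caller added 1 to both terms. The lowest summit in any list is then 3 fragments, and the background at 72 h was 0.87 times that at 0 h. Regions whose −log10 q is at or above the median of their list are called strong here, with lower limits of 7.82, 9.25 and 13.0 for 0, 6 and 72 h. With ties at the limit these are 98492 of 182233, 92810 of 178055 and 76050 of 145044 regions, somewhat over 50% of each list. At 0 h the 4 windows held 7 strong regions exactly at that limit (fold 6.8) and 10 just under it (−log10 q 6.42, fold 6.05). Of 8 promoters of myeloid progenitor markers, 7, 7 and 6 held a region at 0, 6 and 72 h, and that of Mpo held none at any time. Among markers of other cells, promoter regions in the same order numbered 0, 0 and 0 of 3 for B cells, 1, 2 and 0 of 5 for T cells, and 1, 1 and 1 of 4 for endothelium. They numbered 3, 3 and 3 of 6 for erythroid cells and megakaryocytes, 3, 3 and 2 of 7 for mast cells and basophils, and 2, 2 and 2 of 4 for monocytes and dendritic cells, where 1 of the 4 is Flt3 itself. Those of neutrophils numbered 4, 5 and 6 of 6, with Ly6g and Fpr1 listed at 72 h and not at 0 h. In the other direction, Prtn3 of the myeloid progenitor list, Tcf7 of the T cell list, Mcpt8 of the mast cell and basophil list and Klf1 of the erythroid list had a promoter region at 0 h and none at 72 h, while Pf4 had the reverse. Folds at 0 h were 7.56 for Prtn3, 19.7 for Tcf7, 25.7 for Mcpt8 and 4.54 for Klf1, which had none at 6 h. Pf4 had 8.29 at 6 h and 3.9 at 72 h. Among coding genes with a promoter region at 0 h, 6.31% had none at 72 h. Of those without one at 0 h, 1.45% had one at 72 h. Over all coding genes 9791, 9788 and 9285 of 17491 promoters held a region. The part of these lists in the results below was not tested.

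Few of the regions listed around Kit at 0 h were listed at 72 h, while the windows of the other 3 genes kept most of their number. Around Kit, regions numbered 16, 11 and 3 at 0, 6 and 72 h. There were 46, 46 and 39 around Flt3, 23, 27 and 26 around Cd34, and 56, 55 and 46 around Ly6a. Over the windows of all coding genes the 72 h number was 0.844 times that at 0 h. Relative to that change Kit stood at 0.222 (exact 95% interval from the split of both counts 0.0415 to 0.776), Flt3 at 1.0 (0.639 to 1.57), Cd34 at 1.34 (0.735 to 2.46) and Ly6a at 0.974 (0.644 to 1.46). At 6 h the values were 0.704 (0.295 to 1.61), 1.02 (0.665 to 1.58), 1.2 (0.664 to 2.19) and 1.01 (0.68 to 1.49). These intervals cover counting error only and treat both counts as independent. Of the 0 h regions, 9 of 16 around Kit were overlapped at 6 h and 1 of 16 at 72 h (6.25%, exact Clopper-Pearson 95% interval 0.158 to 30.2). The shares at 72 h were 65.2% (49.8 to 78.6) for Flt3, 87.0% (66.4 to 97.2) for Cd34 and 60.7% (46.8 to 73.5) for Ly6a. Over the whole 0 h list 23.4% of regions were not overlapped at 6 h and 40.2% at 72 h. Regions that were not strong, called weak, made up 13 of 16 around Kit and 18 of 46 around Flt3. Around Cd34 they were 4 of 23 and around Ly6a 20 of 56. Of these weak regions 1, 6, 3 and 3 were overlapped at 72 h. Of the strong ones it was 0 of 3, 24 of 28, 17 of 19 and 31 of 36. In the whole list 68.9% of weak and 15.7% of strong 0 h regions were not overlapped at 72 h. The part of this mix in the shares was not tested. In bulk libraries, fewer cells with an open site and less opening per cell cannot be told apart.

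**Figure D1:**
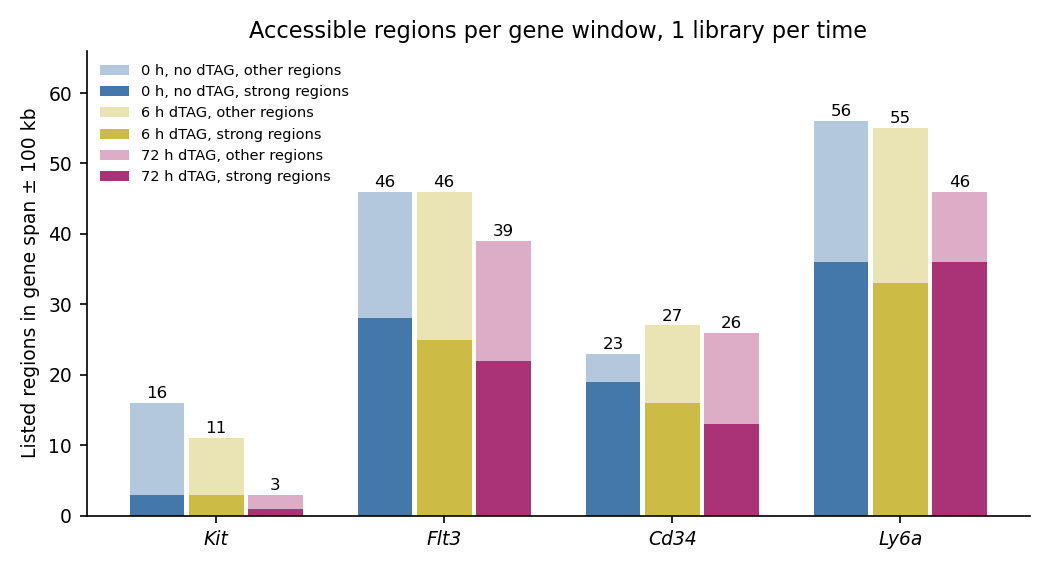
Number of listed regions in each window (vertical axis), by gene and time, with strong regions in the full colour and the others in the pale part of the bar. The Kit bars stand at 16, 11 and 3, while the bars of the other 3 genes keep most of their height.

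Kit (chromosome 5, 75574987 to 75656722, mm10) encodes the stem cell factor receptor, and its window holds no other coding gene. The region at the Kit start lay at 75574845 to 75575096 at 0 h, 252 bp long, with a fold of 18.9 and 24 summit fragments (Poisson 95% interval 15.4 to 35.7). Its summit stood 5 bp inside the gene. At 6 h it lay at 75574743 to 75575161, 419 bp long, with a fold of 18.1 and 23 fragments (14.6 to 34.5). At 72 h none was listed there. Scaled by the background, 24 fragments at 0 h would be 20.9 at 72 h, and the part of depth in the missing region was not tested. The intervals of the 0 h and 6 h summits overlap almost wholly.

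The second Kit region, at 75575717 to 75575923 in the gene just behind the start, had a fold of 10.6 at 0 h (13 fragments) and 9.8 at 6 h (12 fragments). It too was not listed at 72 h. Farther into the gene, 14.8 kb from the start, a region had a fold of 4.54 at 0 h (5 fragments, 1.62 to 11.7) and 10.5 at 6 h (13 fragments, 6.92 to 22.2). The intervals of these 2 values overlap. A region 40.8 kb from the start had 5 fragments at both times. The Kit span held 5, 4 and 0 regions at 0, 6 and 72 h.

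Of the 16 regions around Kit at 0 h, 3 were strong: the pair at the start and one 169.7 kb behind the start, at 75744604 to 75744721 with a fold of 10.6. All 3 were overlapped at 6 h and none at 72 h. Over the whole list, 2.48% of strong 0 h regions were not overlapped at 6 h and 15.7% at 72 h. The other 13 had folds from 3.02 to 6.05, that is 3 to 7 fragments, close to the listing limit. Of these 13, 6 were overlapped at 6 h and 1 at 72 h, while over the whole list 48.1% of weak 0 h regions were not overlapped at 6 h and 68.9% at 72 h. The 1 overlapped at 72 h lay 155.8 kb behind the start, with folds of 6.05, 3.01 and 3.12 in time order.

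At 72 h the stretch around the Kit start without any listed region ran over 245.4 kb, from 75460482 to 75705890. Wholly inside it lay 10 regions at 0 h and 9 at 6 h. The downstream edge of the stretch was set by a region of 59 bp listed at 72 h only. The next region listed at 72 h on that side starts at 75730973. Over all coding genes with a promoter entry, 15.6% of starts lay in a stretch at least as long at 72 h. That share was read at 1 start per gene, and over the 9496 of these starts with a promoter region at 0 h it was 0.611%. Counting every start of a gene, 9791 coding genes had a promoter region at 0 h, of which 2.38% had none at 6 h and 6.31% none at 72 h. For promoters with a fold of 15 to 25 at 0 h, the band that holds Kit, the shares were 0.323% and 4.84%. Kit was chosen with these lists in view, so the shares are given for scale and support nothing.

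The stretch is bounded on the upstream side by regions that were kept. They lie 115 to 117 kb before the Kit start, just beyond the 100 kb window, and were read with a flank of 200 kb. The highest, at 75458333 to 75458730 over the 3 times, had folds of 43.8 (57 fragments, 43.2 to 73.9), 46.0 (60 fragments, 45.8 to 77.2) and 53.1 (67 fragments, 51.9 to 85.1). It was higher than any region in the Kit window at each time. Its neighbour at 75457868 to 75458085 had folds of 7.56, 11.3 and 15.6, that is 9 (4.12 to 17.1), 14 (7.65 to 23.5) and 19 (11.4 to 29.7) fragments. A further one at 75460348 to 75460497 had 7, 5 and 5 fragments. So the regions next to the gene were listed at 0 h, at 6 h or at both, and not at 72 h. The high region far upstream was listed at all 3 times. Of 98083 loci listed at all times, the high upstream locus ranked at percentiles 84.5, 83.3 and 83.2 by height. Between 100 and 200 kb upstream, 9, 8 and 4 regions were listed at the 3 times. On the other side of the gene, the same outer part held 12, 10 and 4. Regions were kept there too. The one at 75826362 to 75826851 at 0 h had folds of 15.1, 12.1 and 16.4 in time order. That at 75853199 to 75853333 at 0 h had 14.4, 6.78 and 8.59. No gene target was measured for any of these regions.

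**Figure D2:**
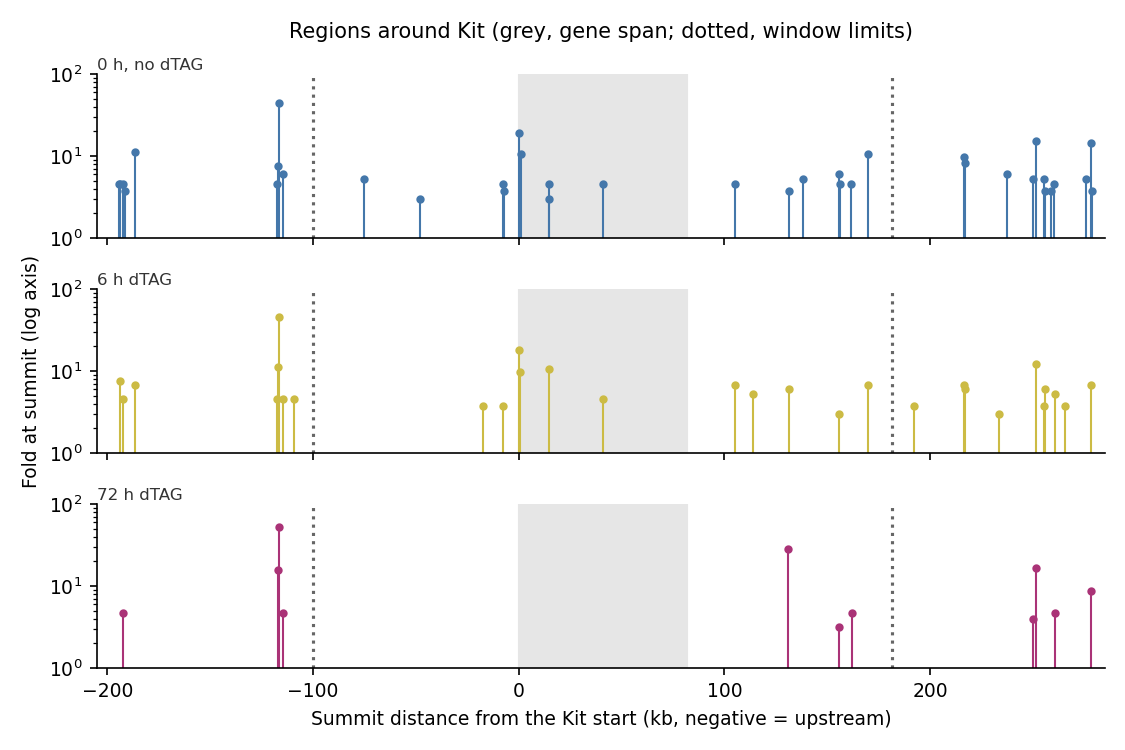
Height of each region (fold at the summit, log axis) against the distance of its summit from the Kit start in kb, in 1 panel per time, with the gene span in grey and the limits of the 100 kb window dotted. At 72 h the span and the start are empty, while the region 116 kb upstream has a fold of 53.1, next to 43.8 at 0 h and 46.0 at 6 h.

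In the Kit window 1 strong 72 h region had no region at 0 h. It lay 130.9 kb behind the start, at 75705891 to 75705949, with a fold of 28.1 and 35 fragments (24.4 to 48.7) over only 59 bp, next to a shortest listed region of 58 bp in that library. Neither earlier list held a region there, the nearest being at 75706531 to 75706642 in the 6 h list and 75706618 to 75706672 in the 0 h list.

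The count of regions around Kit was read against all coding genes. A window count at 72 h of at most 1/2 that at 0 h was seen in 10.9% of the 18984 windows with at least 5 regions at 0 h, and at 6 h in 0.564%. Kit met it at 72 h and not at 6 h, and Flt3, Cd34 and Ly6a met it at neither time. None of the 4 at least doubled, which 0.0105% of windows did at 6 h and 0.0685% at 72 h. A ratio as low as that of Kit was seen in 1.76% of windows. Among the 680 windows that hold a single coding gene, as that of Kit does, 2.35% met the first rule at 6 h and 42.8% at 72 h, 0.147% at least doubled at 72 h, and 11.3% had a ratio as low as Kit.

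In a narrower frame, the span extended by 10 kb at both ends, Kit held 7, 5 and 0 regions. Of 13788 coding genes with at least 5 regions at 0 h in that frame, 84 (0.609%) held none at 72 h, Kit among them. Likeness to Kit was judged over these 3 libraries by that rule alone. Those with the most regions at 0 h included Pdgfb, the B chain of platelet-derived growth factor (14, 10 and 0 regions), Tmem132d (14, 15 and 0), Fgf14, a fibroblast growth factor homologue of neurons (13, 9 and 0), and Pcsk2, a prohormone convertase (13, 7 and 0). Of the 84 genes, 13 had a promoter region at 0 h, 48 had none and 23 had no promoter entry. The highest 0 h region was at least as high as the 18.9 of Kit in 8 of the 84, Kit included.

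Flt3 (chromosome 5, 147330741 to 147400489, minus strand) kept the region at its start at all 3 times. This region lay at 147400187 to 147400694 at 0 h with a fold of 97.5 and 128 fragments (106.8 to 152.2). The fold was 107.0 at 6 h (141 fragments, 118.7 to 166.3), and 91.3 at 72 h (116 fragments, 95.9 to 139.1). It was the highest of the window at 0 h and 6 h. At 72 h a region 29.6 kb upstream, in Pan3, stood at 92.9. The span of Flt3 itself held 13, 17 and 9 regions. The window also holds Pdx1 and Cdx2, homeobox genes of gut and pancreas, Urad, and part of Pan3, a subunit of a deadenylase, so not every region in it need bear on Flt3.

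Of the 28 strong regions around Flt3 at 0 h, 27 were overlapped at 6 h and 24 at 72 h, and of the 18 weaker ones 9 and 6. For scale, 2.48% of all strong 0 h regions were not overlapped at 6 h and 15.7% at 72 h. For all weak ones the shares were 48.1% and 68.9%. The 4 strong ones without a 72 h region had folds of 6.8 at 147242122 to 147242190, 7.56 at 147269977 to 147270235 in Pdx1 and Plut, 13.6 at 147294163 to 147294342 in the long noncoding gene Gm35112, and 6.8 at 147341171 to 147341249 inside Flt3. No strong 72 h region of the window lacked a region at 0 h; over the whole lists 1.71% of strong 6 h regions and 7.21% of strong 72 h regions did.

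For loci listed at all 3 times, heights were compared as percentile ranks within the common set of 98083 loci, so that each list has the same length. Rank bounds were taken at the Poisson 95% bounds of the summit fragments and cover counting error only. Over the whole set, 16.1% of loci ranked at least 20 points lower at 72 h than at 0 h and 16.3% at least 20 points higher; for 6 h the shares were 4.45% and 4.21%. Of the 29 such loci around Flt3, 6 ranked at least 20 points lower at 72 h and 4 higher, a share near the background. At 6 h the numbers were 1 and 2. The rank of the Flt3 start was 95.9, 95.2 and 91.7 at the 3 times.

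Upstream of Flt3, neighbouring loci differed in direction. The locus 2.27 kb upstream had folds of 17.4, 15.8 and 5.46, and ranks of 58.7, 53.0 and 14.6, although its bounds at 0 h and 72 h overlap. The next, 10.3 kb upstream, had folds of 12.9, 21.1 and 14.8 and ranks of 47.2, 63.3 and 50.5. A pair of adjacent loci 18.1 and 18.5 kb upstream moved apart. The first had folds of 51.4, 60.3 and 30.4, with ranks of 87.4 (82.5 to 91.1) and 71.4 (62.0 to 78.5) at 0 h and 72 h. The second had folds of 37.0, 58.0 and 82.0, with ranks of 81.0 (73.8 to 86.4) and 90.2 (87.2 to 92.8). The locus 20.5 kb upstream had folds of 23.4, 36.9 and 7.03, and ranks of 68.9 (56.2 to 78.3), 78.9 and 24 (1.89 to 45.9). Near the far end of the gene, 68.7 kb downstream of the start, the folds were 36.3, 32.4 and 14.1, with ranks of 80.5 (73.0 to 86.1) at 0 h and 48.7 (29.9 to 63.1) at 72 h. In the other direction, the locus over Urad, 85.1 kb from the start, had folds of 6.05, 15.8 and 25, and ranks of 16.4 at 0 h and 66.3 (55.9 to 75.1) at 72 h. Of all 13 loci upstream of the start, 8 ranked higher at 72 h and 5 lower, with a median change of 3.16 points. Over all common loci 47.2% ranked higher and 52.8% lower. The locus at 71.0 kb, in Pan3, went from rank 25.3 to 67.1.

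Cd34 (chromosome 1, 194938821 to 194961292, plus strand) also kept the region at its start. It lay at 194938737 to 194939049 at 0 h with a fold of 45.4 and 59 fragments (44.9 to 76.1), had a fold of 49.7 and 65 fragments (50.2 to 82.8) at 6 h, and 49.2 and 62 fragments (47.5 to 79.5) at 72 h. The 3 intervals overlap. A region 4.91 kb into the gene had folds of 31.7, 29.4 and 23.4. The window holds 2 coding genes, Cd34 and Cd46, so not every region in it need bear on Cd34. Of 19 strong regions at 0 h, 18 were overlapped at 6 h and 17 at 72 h, and of the 4 weaker ones 4 and 3. In the whole list 2.48% of strong regions were not overlapped at 6 h and 15.7% at 72 h, and 48.1% and 68.9% of weak ones.

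The 2 strong ones not overlapped at 72 h lay inside Cd34 at 194953071 to 194953189 (fold 12.1) and, in the noncoding gene A330023F24Rik, at 195024360 to 195024427 (fold 6.8). The 1 without a region at 6 h, at 194935590 to 194935734 with a fold of 7.56, was listed again at 72 h.

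**Figure D3:**
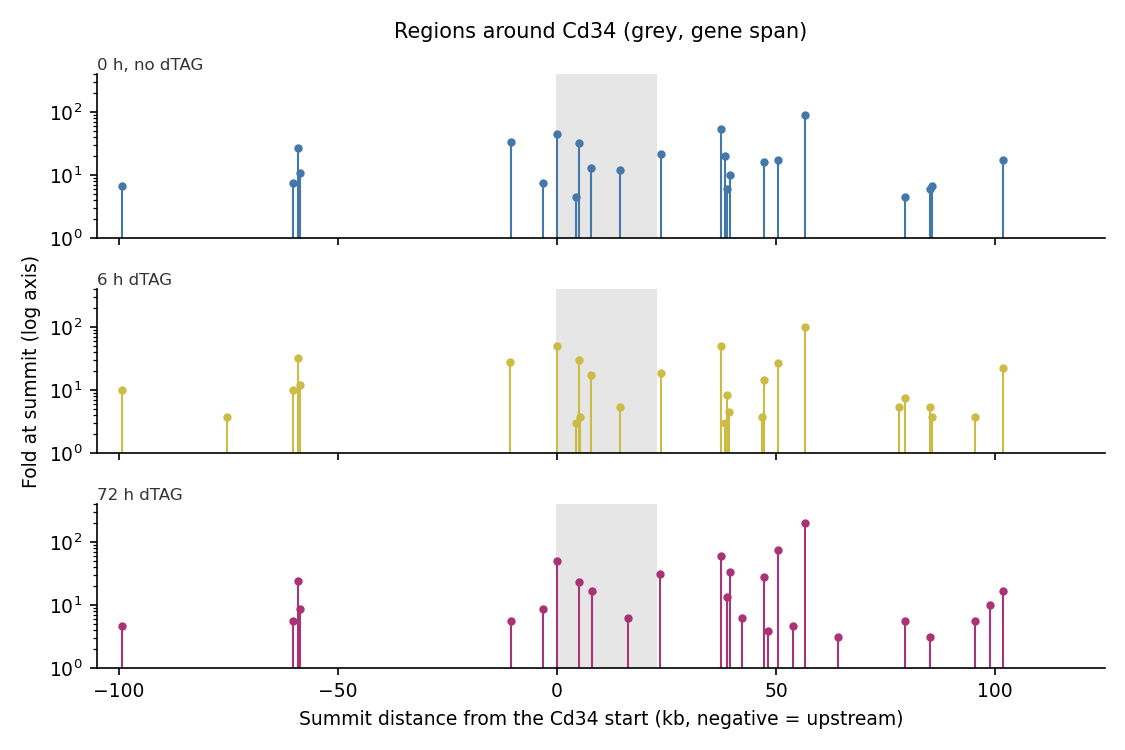
Height of each region (fold at the summit, log axis) against the distance of its summit from the Cd34 start in kb, in 1 panel per time, with the gene span in grey. The region at the start is there in all panels, the one 10.7 kb upstream is at 34.0 at 0 h and 5.46 at 72 h, and the one 56.5 kb downstream is the highest in each panel.

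The largest rank fall around Cd34 was at 194927935 to 194928303, 10.7 kb upstream of the start. Its folds were 34.0 (44 fragments, 32.0 to 59.1), 27.9 (36 fragments, 25.2 to 49.8) and 5.46 (6 fragments, 2.2 to 13.1). Its rank was 79.1 (70.4 to 85.3), 71.8 (61.4 to 79.5) and at most 41.5 by the upper bound at 72 h, where it stood at 14.6. A rank fall as large as its 64.5 points was seen at 0.167% of the common loci. This locus was picked after its values were seen.

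Behind the gene the highest region of the window lay 56.5 kb from the start, in the span of the long noncoding gene Gm32250. Its fold was 88.4 with 116 fragments (95.9 to 139.1) at 0 h, 101.7 with 134 (112.3 to 158.7) at 6 h and 199.8 with 255 (224.7 to 288.3) at 72 h. Its rank was 94.9 (92.6 to 96.7), 94.7 and 99.0 (98.3 to 99.5). The locus 50.4 kb from the start had folds of 17.4, 26.4 and 74.2, and ranks of 58.7 (40.9 to 72.1) and 88.8 (85.2 to 91.7) at 0 h and 72 h. The locus at 39.4 kb had folds of 9.83, 4.52 and 33.6, and ranks of 36.4 (13.9 to 56.2) and 73.7 (65.8 to 80.0). All 5 common loci upstream of the Cd34 start ranked lower at 72 h (median change −10.7 points). Of the 12 downstream, 8 ranked higher and 4 lower (median 6.47). That split was made after the values were seen. Over all common loci 52.8% ranked lower and 47.2% higher. Around Cd34 the bounds at 0 h and 72 h lay apart at 1 lower locus, the one 10.7 kb upstream, and at 3 higher ones. At the other upstream loci they overlap. In all, 1 of the 18 loci around Cd34 ranked at least 20 points lower and 3 ranked that much higher, against the 16.1% and 16.3% of all loci.

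A region of 163 bp at 195037597 to 195037759, of fold 10.1 at 72 h, was the only strong one around Cd34 at 72 h without a region at 0 h, and it was not listed at 6 h either. It covers the 3′ arm of Mir29c, shown because it is the mature miRNA that this region covers, with mmu-miR-29b-3p of the neighbouring Mir29b-2, which lies outside the region and has the same seed. Both are from RefSeq, GRCm38.p6, plus strand, at chr1:195037600-195037621 and chr1:195037091-195037113, and capitals mark the seed, bases 2 to 8.
mmu-miR-29c-3p: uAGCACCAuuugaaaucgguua
mmu-miR-29b-3p: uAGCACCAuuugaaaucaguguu

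Ly6a (chromosome 15, 74994877 to 74998031) held no region inside its span at 0 h or 72 h, and 1 at 6 h with 3 fragments, the listing limit. Ly6a had no start-site entry, so the lower end of the span is a point of reference and is not called its start. Just below the lower end lay a region from 74994577 to 74994686. Its fold was 10.6 at 0 h (13 fragments, 6.92 to 22.2) and 6.78 at 6 h (8 fragments, 3.45 to 15.8). It was strong at 0 h and was not listed at 72 h. The next locus, 1.97 kb below the span, had folds of 47.6, 36.9 and 46.1, that is 62 (47.5 to 79.5), 48 (35.4 to 63.6) and 58 (44.0 to 75.0) fragments, which overlap. About 6 kb below the span a broad region of 1499 bp with a fold of 64.3 at 0 h was listed as 1 region of 1330 bp and fold 80.6 at 6 h. At 72 h it was listed in 3 pieces with folds of 10.1, 99.1 and 30.4, the highest 750 bp long. It thus counts as 1 region at 0 h and as 3 at 72 h.

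**Figure D4:**
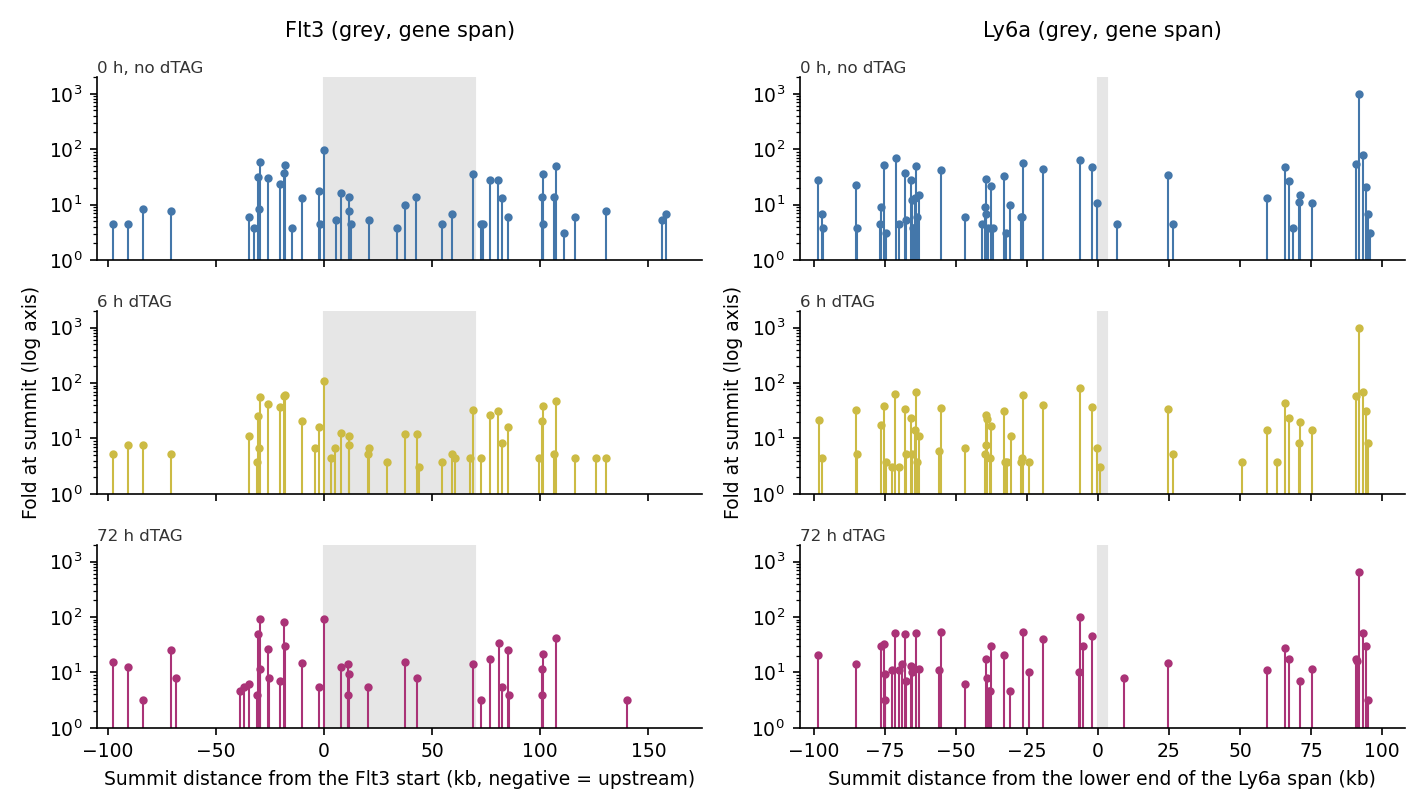
Height of each region (fold at the summit, log axis) against the distance of its summit in kb from the Flt3 start (left) and from the lower end of the Ly6a span (right), in 1 panel per time, with gene spans in grey. The Flt3 start is high in all 3 panels (97.5, 107.0 and 91.3), and the Ly6a span is empty at 0 h and 72 h.

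The Ly6a window also holds Ly6e, Ly6i and Ly6c1, relatives whose products share the same membrane anchor. Of its 36 strong regions at 0 h, 36 were overlapped at 6 h and 31 at 72 h, and of the 20 weaker ones 9 and 3. In the whole list 2.48% of strong regions were not overlapped at 6 h and 15.7% at 72 h, and 48.1% and 68.9% of weak ones. Of the 5 strong ones around Ly6a not overlapped at 72 h, 2 lay in the Ly6e span, with folds of 9.07 and 6.8. The window gained 4 strong regions at 72 h with none at 0 h, with folds from 10.1 to 14.1, of which 2 overlapped a region at 6 h; that is 4 of its 36 strong 72 h regions, beside 7.21% over the whole list. Its highest region lies 92.0 kb above the lower end of the span, at 75085954 to 75087040, with folds of 977.4, 973.6 and 651.8, at the top percentile of each list; without it the highest folds of the window were 79.4, 80.6 and 99.1.

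Of the 32 common loci around Ly6a, 22 ranked lower at 72 h than at 0 h, 9 higher and 1 the same, where 52.8% of all common loci ranked lower and 47.2% higher. The median change was −8.37 points, against −0.917 over all common loci. Changes of at least 20 points numbered 6 lower and 2 higher, beside 16.1% and 16.3% of all loci, and at 6 h 1 and 1, beside 4.45% and 4.21%. The largest in each direction were at 75085494 to 75085850, next to the very high region, with folds of 52.9, 59.5 and 17.2 and ranks of 87.9 (83.2 to 91.4) at 0 h and 55.2 (39.1 to 67.5) at 72 h, and at 74918535 to 74918784, with folds of 9.07, 17.3 and 29.7 and ranks of 33.0 (8.95 to 54.4) and 70.7 (62.0 to 77.7). The locus 24.8 kb above the lower end, between Ly6a and Ly6c1, had folds of 34.0, 33.9 and 14.8, with ranks of 79.1 (70.4 to 85.3) and 50.5 (33.3 to 64.1).

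**Figure D5:**
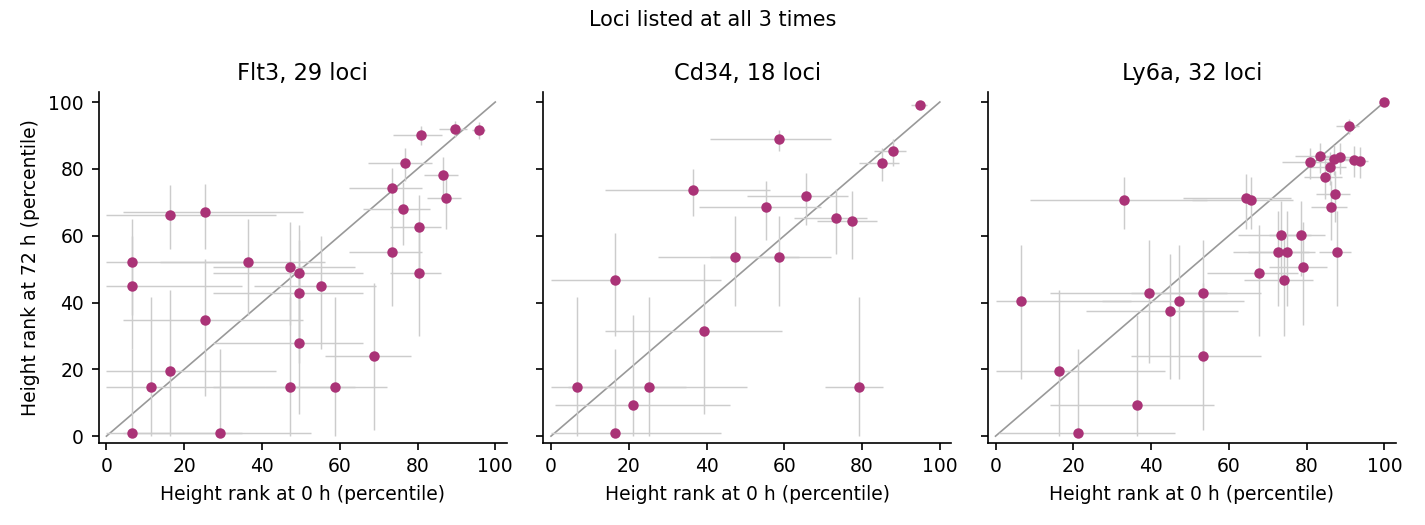
Percentile rank by height at 72 h against that at 0 h, among loci listed at all 3 times, for the windows of Flt3, Cd34 and Ly6a; points are loci, grey bars the ranks at the 95% Poisson bounds of the summit fragments, and the line marks equal rank. Points lie on both sides of the line in each panel, and for Ly6a 22 of 32 lie below it; Kit has a single such locus and is not drawn.

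The other genes of the pathway were read at their promoters, 250 bases before to 50 after a start. Of 24 other progenitor surface genes, 20 had a promoter entry, and 15, 16 and 15 of these held a region at the 3 times. None of the 15 lacked one at 72 h, where 6.31% of all genes did. At 0 h their promoter folds ran from 3.02 at Slamf1, a receptor of stem cells, to 143.6 at Tfrc, the transferrin receptor. At 72 h they ran from 3.9 at Cd48, a ligand of that receptor family, to 150.7 at Cd33, a sialic acid lectin of myeloid cells. The one more at 6 h was Cd38, with a fold of 3.01. Thy1, on the same list, had no promoter entry and is not in these counts. In its span extended by 10 kb it held 6, 4 and 0 regions, so it was among the 84 genes that met that rule with Kit. Its 100 kb window held 67, 60 and 43. Promoters listed at all 3 times did not all keep their height. In time order the folds were 34.0, 29.4 and 5.46 at Itga2b, 69.5, 70.8 and 16.4 at Cxcr4, and 44.6, 36.9 and 14.1 at Spn. At Cd33 they were 59.7, 70.8 and 150.7. These examples, lower and higher, were chosen after their values were seen.

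Of 23 ligand and signalling genes, 19 had a promoter entry, and 18 of these held a region at each of the 3 times. The exception was Kitl, the Kit ligand, with no promoter region at any time and 4, 4 and 0 regions in its window. Flt3l, the Flt3 ligand, had promoter folds of 77.1, 75.4 and 82.7. Over the 18 promoters the lowest and highest folds at each time were those of Sos1, an exchange factor for Ras (24.2, 32.4 and 34.3), and of Stat3, a transcription factor (183.7, 204.2 and 254.5). The median window ratio of 72 h over 0 h was 0.898 in this list and 0.898 among the other surface genes, beside 0.833 over all coding windows with at least 5 regions at 0 h.

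Among the receptor relatives of Kit and Flt3, the windows held 40, 37 and 25 regions at Csf1r, the receptor of macrophage growth factor, 30, 29 and 18 at Pdgfra, and 44, 39 and 25 at Pdgfrb. None of the 3 met the rule of at most 1/2 the 0 h count. Among 9 relatives of Ly6a, the windows of Ly6d, Ly6k, Ly6h and Gpihbp1 met it, with 38 and 17, 39 and 17, 26 and 11, and 30 and 14 regions at 0 h and 72 h, beside the 10.9% of all windows. Ly6d and Ly6k lie within 100 kb of each other, as do Ly6h and Gpihbp1, and the windows of each pair overlap, so those 4 are not separate observations. Ly6g, a neutrophil antigen, had no promoter region at 0 h and one at 6 h (fold 8.29) and 72 h (fold 12.5). Of all genes without a promoter region at 0 h, 2.99% had one at 6 h and 1.45% at 72 h. Ly6c2, a monocyte antigen, had folds of 15.1, 9.8 and 10.9. Mcpt8, a basophil protease on the mast cell and basophil list, had promoter folds of 25.7 and 15.1 at 0 h and 6 h and no region at 72 h, while Gata2, a factor of progenitors and mast cells, had 28.7, 29.4 and 14.1. Hdc, which makes histamine, had 20.4, 26.4 and 20.3, and the other 4 promoters of that list held no region.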

How the data were processed

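ATAC-seq peak lists of 3 libraries, 1 per time, were analysed. The authors deposited 1 list per library on build mm10, each line with a fold (a ratio of summit height to background), a −log10 p-value and −log10 q-value and a score derived from the q-value. The submitters' processing notes name BWA 0.7.17, MACS2 2.2.7 and bedtools 2.30.0, among others; for options, duplicates and read shifting the sources used here give nothing. Groups came from the treatment labels. Regions on chromosomes 1 to 19, X and Y were matched between lists when they shared at least 1 bp, with Python 3.11.15, pandas 2.3.3 and scipy 1.17.1. Gene spans, start sites and sequences came from RefSeq tables of GRCm38.p6. All 4 symbols matched a gene span and 3 matched a start site, which set the promoter windows. Read totals were not used here. All folds lay within 0.01 of a step of an even grid, and summit fragments and Poisson intervals rest on the stated reading of that grid. With 1 library per time no test was run. Shares have exact Clopper-Pearson intervals. The functions were checked on simulated data. Members and lists were chosen with earlier results of these data known. The genes named are the 4 members, others in their windows to place regions, the 5 genes most like Kit by region counts (1 of them is not reported here) and, from each list, up to 4 genes whose promoter region was present at 0 h and not at 72 h or the reverse; examples outside that rule were chosen after their values were seen. Alternatives were flank, height minimum, equal list length, joined regions and the overlap rule.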

Additional observations from a re-analysis of the deposited data

How the results depend on the processing

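Across 9 alternative settings, 16 quantities (the share of 0 h regions overlapped later and the relative window count, for 4 genes and 2 times) gave 128 alternative values, of which 109 stayed inside the exact 95% interval of the reported value and 19 did not. The share of 0 h regions around Kit overlapped at 72 h was 6.25%. It was 0.0% with a flank of 10 or 50 kb and with a −log10 q or a fold of at least 10 (0 of 3 regions). It was also 0.0% with an overlap of 50% of the shorter region and with the summit inside a later region. With a flank of 200 kb, which takes in kept regions far upstream and far downstream, it was 18.9%. The relative count of Kit at 72 h was 0.222, 0.0 with a flank of 10 kb and 0.355 at most; with the 2 height minimums it rests on 1 region against 3, and its intervals, 0.00619 to 4.05 and 0.00574 to 3.75, include 1. For the window counts the height minimums were applied to every list. For the overlap shares they were applied to the 0 h list only, and any region of the later list counted. With a −log10 q of at least 10 or a fold of at least 10, the share of these higher 0 h regions overlapped at 6 h was 100% for all 4 genes. At 72 h it was then 95.7% and 95% for Flt3 and 90.9% and 93.3% for Ly6a, against 65.2% and 60.7% over all regions. No paired analysis was possible because each group held 1 library, and for the same reason no library could be left out. Depth limits every absence, since the lowest listed summit held 3 fragments and the shortest listed region 55 bp.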
